A study of Mus musculus with 9 samples.

Results

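Erythroid transcripts are the RNAs that red cells and their precursors make in large amounts, and 4 of them were followed here through the cycle of the mouse mammary gland: Hbb-b2, Hba-a1, Alas2 and Slc4a1. The genes were listed because the Hbb-b2 signal rose at pregnancy, and every probe set (a set of short probes read as a single signal) that names a listed gene in the annotation of the array was taken. These are 4 of the 8251 genes with a probe set of their own. In all, 7 probe sets name a listed gene, of which 4 carry that symbol alone and 3 carry several symbols. RNA came from the whole No. 4 (inguinal) gland of wild type C57BL/6J females and was hybridised, biotin-labelled, to 9 MG-U74Av2 arrays that the design describes as biological replicates. The groups were puberty (labelled Virgin, 6 weeks of age, 3 arrays), day 14 of pregnancy (2 arrays), day 10 of lactation (2 arrays) and involution 4 days after the pups were weaned (2 arrays). No allele was altered and no agent was given in any group, and ages beyond puberty were not given in the labels.

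Haemoglobin is built from alpha-globin and beta-globin chains, each holding a haem group, and both chains are made in matched amounts as red cell precursors mature. Alas2 is the erythroid form of the enzyme that starts haem synthesis, and Slc4a1 is the main anion exchanger of the red cell membrane. Mature red cells have no nucleus, and it is the young cells released from marrow or spleen, the reticulocytes, that still carry much globin RNA. A gland taken whole contains the blood in its vessels. In such bulk RNA, fewer red cells and less RNA per red cell cannot be told apart.

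C57BL/6J mice carry a haplotype of the adult beta-globin genes whose members are named Hbb-bs and Hbb-bt, while Hbb-b1 and Hbb-b2 are names of another haplotype. The probe set called Hbb-b2 here therefore bears the annotation's symbol, and which beta-globin gene gave its signal cannot be told. Promoter entries of RefSeq, on GRCm38.p6, were present for 5 of the 8 genes looked up, and Hbb-b1, Hbb-b2 and Slc4a1 were not among them. The 250 bases before the start are printed for 4 of the genes with an entry, of which Hbb-bs and Hbb-bt have no probe set of their own. Capitals mark the letters AGATAA or TGATAA, which erythroid GATA factors can bind, CACCC, which factors of the Klf family can bind, CCAAT and TATAA, each on either strand.
Hba-a1, chr11:32283422-32283671, plus strand: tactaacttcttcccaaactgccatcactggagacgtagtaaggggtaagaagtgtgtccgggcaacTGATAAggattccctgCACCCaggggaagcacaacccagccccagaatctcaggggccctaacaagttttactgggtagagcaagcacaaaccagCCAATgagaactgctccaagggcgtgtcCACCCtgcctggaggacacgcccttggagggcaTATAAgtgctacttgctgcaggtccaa
Hbb-bs, chr7:103827929-103828178, minus strand: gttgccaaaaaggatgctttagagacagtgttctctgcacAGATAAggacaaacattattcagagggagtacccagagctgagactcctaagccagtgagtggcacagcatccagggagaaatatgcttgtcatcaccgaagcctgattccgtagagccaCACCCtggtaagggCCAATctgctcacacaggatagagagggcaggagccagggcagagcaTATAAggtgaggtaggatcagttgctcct
Hbb-bt, chr7:103813924-103814173, minus strand: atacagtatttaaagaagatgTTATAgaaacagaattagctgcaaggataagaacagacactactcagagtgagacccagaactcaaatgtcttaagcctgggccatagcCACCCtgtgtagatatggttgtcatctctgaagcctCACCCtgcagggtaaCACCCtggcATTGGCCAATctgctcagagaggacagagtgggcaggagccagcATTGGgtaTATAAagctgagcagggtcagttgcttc
Alas2, chrX:150547167-150547416, plus strand: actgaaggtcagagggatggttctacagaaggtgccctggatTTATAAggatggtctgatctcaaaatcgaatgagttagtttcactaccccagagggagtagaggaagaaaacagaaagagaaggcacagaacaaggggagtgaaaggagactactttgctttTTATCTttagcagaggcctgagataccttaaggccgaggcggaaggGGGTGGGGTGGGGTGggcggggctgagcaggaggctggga

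The TATAA letters began 27 bases before the start of Hba-a1, 29 before that of Hbb-bs and 28 before that of Hbb-bt. In Alas2 they lay farther away, overlapping on both strands at 207 and 208 bases. A GATA match lay at 183 bases in Hba-a1, at 210 in Hbb-bs and, on the minus strand, at 86 in Alas2, and none was among the 250 bases of Hbb-bt. All 4 motifs were in the Hba-a1 and Hbb-bs windows, against 0.721% of the 32851 RefSeq promoters of the same length. Singly they were common, with CACCC in 52.0%, CCAAT in 33.8%, TATAA in 22.8% and the GATA letters in 16.6% of those promoters. The window of Hba-a1 shared 247 bases with that of its neighbour Hba-a2, and Hbb-bs and Hbb-bt were 70.9% identical over their alignment. These matches are letters in a window and were not measured as binding sites.

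Signals below are the deposited intensities after scaling all arrays to the same median, and stage means are given with their SD over arrays. The stage means of all 6 measured erythroid probe sets were highest at pregnancy and lowest at involution. In 5 of them the pregnancy arrays lay above and the involution arrays below every other array, and in Slc4a1 the arrays of all stages overlapped. The rise of Hbb-b2 at pregnancy is what the genes were chosen by, so its values are a description and were not tested. The stated choice did not use the comparisons among puberty, lactation and involution, although earlier results of these data were known when the genes were listed. These comparisons were tested with limma over 9783 probe sets with Benjamini-Hochberg adjustment.

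The Hbb-b2 probe set, for the beta chain of adult haemoglobin, read 387, 309.8 and 445 at puberty, 2097 and 1685 at pregnancy, 444 and 466 at lactation, and 52.1 and 22.7 at involution. Both pregnancy arrays lay above all others, both involution arrays lay below all others, and puberty and lactation overlapped. The stage means were 381 ± 67.8 (SD, n = 3), 1891 ± 291 (SD, n = 2), 455 ± 15.4 (SD, n = 2) and 37.4 ± 20.8 (SD, n = 2) in that order. Pregnancy was thus 4.97-fold over puberty, 4.16-fold over lactation and 50.6-fold over involution. Of all probe sets tested, Hbb-b2 ranked 5 from the highest in log2 change at pregnancy against the mean of the other 3 stages, at 3.38 (standard error 0.278).

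A second, brighter beta-globin probe set carries 4 symbols, Hbb-bt, Hbb-bs, Hbb-b2 and Hbb-b1, and read the adult beta-globin genes jointly. Its signals were 2735, 2368 and 3051 at puberty, 9874 and 8520.3 at pregnancy, 4633 and 4741 at lactation, and 318 and 155 at involution. Here the stages stood apart on every array, in the order pregnancy, lactation, puberty, involution. Pregnancy was 3.38-fold over puberty and 1.96-fold over lactation, and lactation was 1.72-fold over puberty. Another probe set with the same 4 symbols read 0.682 to 10.95 over all 9 arrays, below the floor of 20 set on the values, and was not tested.

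Hba-a1, for the alpha chain, read 2904, 1962 and 3566 at puberty, 9982 and 8145 at pregnancy, 1736 and 2149 at lactation, and 296 and 186 at involution. Pregnancy lay above and involution below every other array, as for beta-globin, while lactation overlapped puberty with the lower mean. The stage means were 2811 ± 806 (SD, n = 3) at puberty, 9063 ± 1299 (SD, n = 2) at pregnancy and 1942 ± 292 (SD, n = 2) at lactation, and fell to 241 ± 77.7 (SD, n = 2) after weaning. The probe set shared by Hba-a1 and Hba-a2, the neighbouring alpha-globin gene, read 566, 471 and 576 at puberty, 2178 and 1839 at pregnancy, 738 and 562 at lactation, and 212 and 166 at involution. The order of pregnancy over the rest and of the rest over involution was the same in it, with a smaller span, 3.74-fold from puberty to pregnancy and 2.84-fold from involution to puberty.

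Alas2 was far dimmer. It read 65.1, 56.2 and 92.0 at puberty, 488 and 325 at pregnancy, 83.8 and 78.3 at lactation, and 14.6 and 27.1 at involution. The first involution array was under the floor of 20, so folds against involution rest on values at the edge of measurement. Pregnancy stood above every other array, at 5.72-fold the puberty mean and 5.01-fold the lactation mean, and puberty and lactation overlapped.

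The Slc4a1 means ran in the same order as those of Hbb-b2 but lay close together. Its signals were 42.7, 45.8 and 51.9 at puberty, 61.9 and 43.3 at pregnancy, 62.1 and 38.8 at lactation, and 60.8 and 29.8 at involution. All 4 stages overlapped, and in each 2-array stage the arrays differed by more than the 3 puberty arrays did. The pregnancy mean of 52.6 ± 13.1 (SD, n = 2) was 1.12-fold the puberty mean of 46.8 ± 4.68 (SD, n = 3). The lactation mean was 50.4 ± 16.5 (SD, n = 2), and the involution mean was 45.3 ± 22.0 (SD, n = 2). All 9 signals were dim, near the median of all probe sets.

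**Figure D1:**
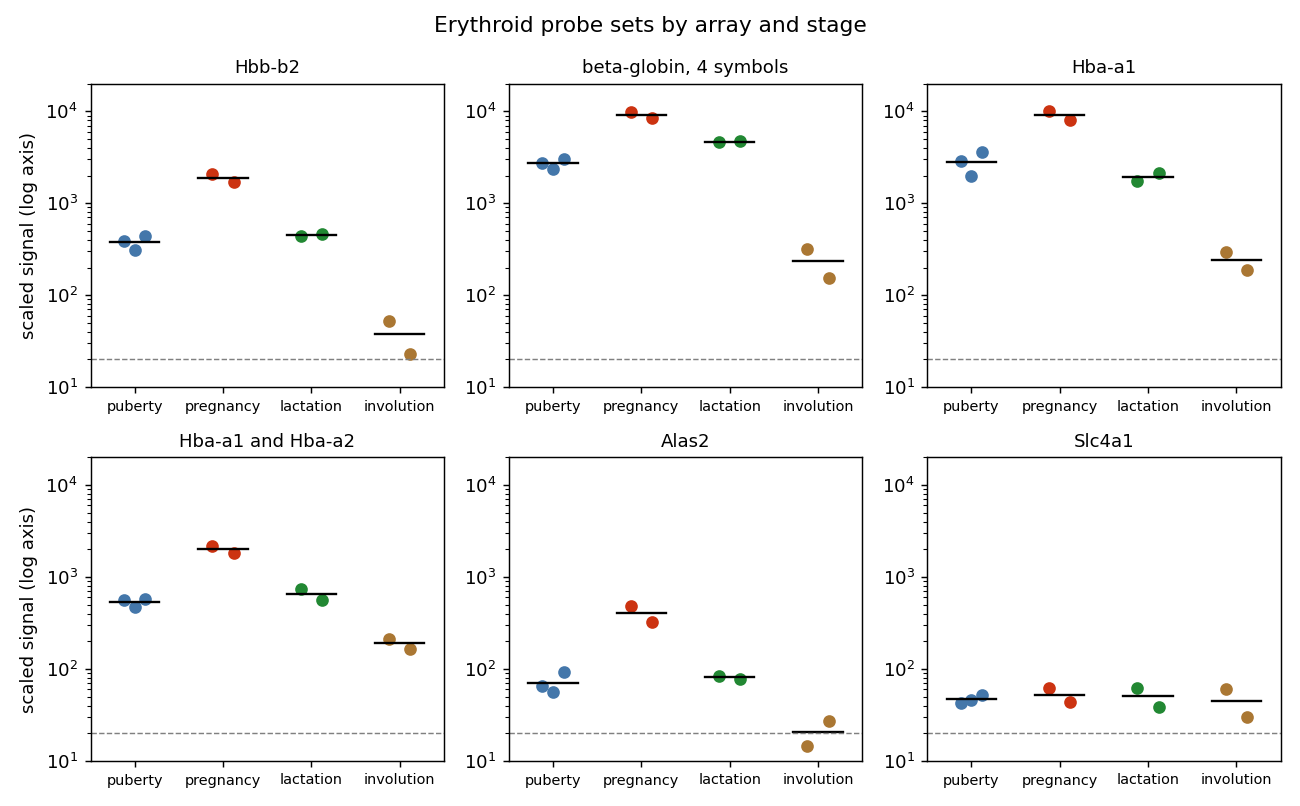
Scaled signal of the 6 measured erythroid probe sets by stage, on a log axis shared by all panels, with a point for each array, a bar at each stage mean and a dashed line at the floor of 20. In 5 panels the 2 pregnancy points lie above and the 2 involution points below all others, and in the Slc4a1 panel the stages overlap between 29.8 and 62.1.

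From puberty to involution, a comparison the choice of genes did not use, Hbb-b2, Hba-a1 and Alas2 fell and Slc4a1 did not pass the test, so that 3 of the 4 genes were called lower. Of all probe sets tested, 3.1% were called lower and 4.39% higher in this comparison. Hbb-b2 fell by 3.45 on the log2 scale (standard error 0.315, adjusted p = 0.000572, limma), and the shared beta-globin probe set fell by 3.61 (standard error 0.271, adjusted p = 0.000234). Hba-a1 fell by 3.54 (standard error 0.281, adjusted p = 0.000276). On the linear scale the puberty means were 10.2-fold, 11.5-fold and 11.6-fold the involution means, with the second Hbb-b2 involution array close to the floor. These probe sets ranked 23, 18 and 21 from the lowest log2 change of all 9783.

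The probe set shared by Hba-a1 and Hba-a2 fell by 1.51 from puberty to involution (standard error 0.177, adjusted p = 0.00187). Alas2 fell by 1.58 (standard error 0.285, adjusted p = 0.0131). The Alas2 call did not hold under every setting, with adjusted p-values of 0.0560 and 0.0589 without lactation replicate 1 or 2, 0.0734 and 0.0583 without involution replicate 1 or 2, and 0.430 with a floor of 50, where its change was −0.48. The globin calls held in all alternatives, with Hbb-b2 between −4.05 and −2.85 and Hba-a1 between −3.87 and −3.20. Slc4a1 was at −0.13 on the log2 scale (standard error 0.352, adjusted p = 0.911), and its sign turned without involution replicate 2, at 0.38.

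From lactation to involution the fall was of the same kind. The shared beta-globin probe set fell by 4.40 (standard error 0.297, adjusted p = 1.92e-05, limma), Hbb-b2 by 3.73 (standard error 0.345, adjusted p = 8.64e-05) and Hba-a1 by 3.04 (standard error 0.308, adjusted p = 0.000126). Alas2 fell by 1.80 (standard error 0.312, adjusted p = 0.00196), although with a floor of 50 its change was −0.70 (adjusted p = 0.131). The probe set of both alpha genes fell by 1.78 (adjusted p = 0.000184). Slc4a1 had a change of −0.21 (standard error 0.386, adjusted p = 0.693). Thus 3 of the 4 genes were called lower, against 23% of all probe sets called lower and 22.1% called higher, a broad background in which the beta-globin sets ranked 24 and 43, Hba-a1 ranked 82 and Alas2 ranked 452 from the lowest.

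Between puberty and lactation none of the 4 genes was called on its own probe set, against 21.8% of probe sets called lower and 26.1% called higher. The log2 changes were 0.27 for Hbb-b2 (standard error 0.315, adjusted p = 0.504), −0.50 for Hba-a1 (standard error 0.281, adjusted p = 0.174), 0.22 for Alas2 (adjusted p = 0.554) and 0.07 for Slc4a1 (adjusted p = 0.886). The shared beta-globin probe set rose by 0.79 (standard error 0.271, adjusted p = 0.0390). That call was lost with the deposited scale (0.68, adjusted p = 0.0694), with quantile normalization (0.20, adjusted p = 0.540), with no filter (0.79, adjusted p = 0.106) and without any single array of puberty, pregnancy or lactation, where the adjusted p was up to 0.192. Quantile normalization also moved Hba-a1 to −1.02 (adjusted p = 0.0130).

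The F test over puberty, lactation and involution together called Hbb-b2 (adjusted p = 8.37e-05), Hba-a1 (adjusted p = 6.39e-05) and Alas2 (adjusted p = 0.0024), and not Slc4a1 (adjusted p = 0.887). It called 51.2% of all probe sets, so a call there is common.

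**Figure D2:**
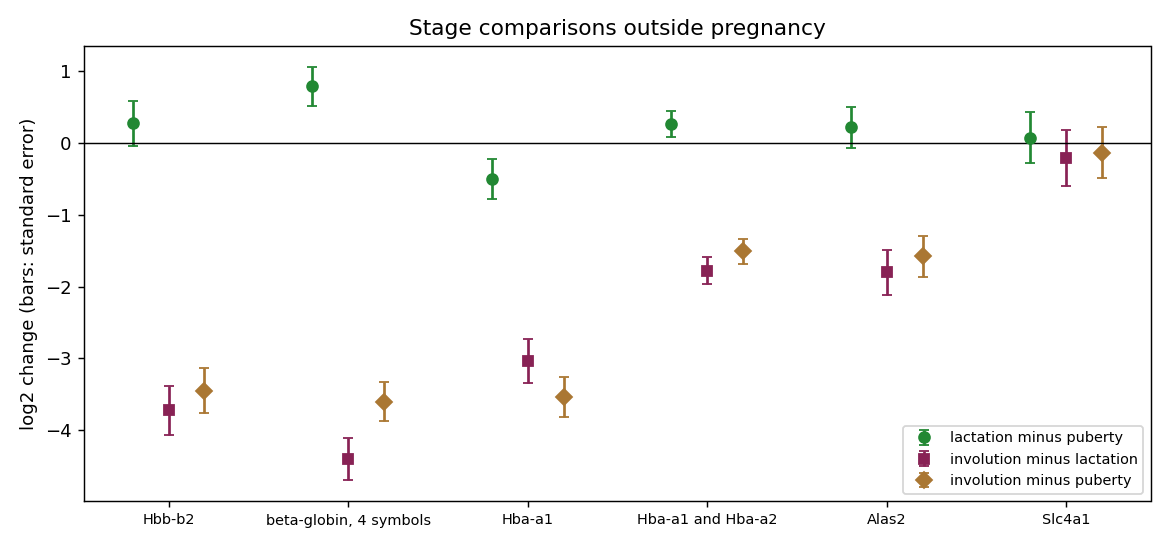
Log2 change of each erythroid probe set for lactation minus puberty (circles), involution minus lactation (squares) and involution minus puberty (diamonds), with standard errors as bars. The globin and Alas2 points of both involution comparisons lie between −1.51 and −4.40, and the Slc4a1 points lie near 0.

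Over the 9 arrays the 5 probe sets other than Slc4a1 rose and fell together, with Pearson r from 0.866 to 0.985 in their 10 pairs, while the 5 pairs with Slc4a1 had r from 0.283 to 0.400. These values describe arrays that share 4 stages and include the pregnancy arrays that the choice used, and probe sets of a gene family share target sequence. Within stages the arrays also kept an order in several genes. At pregnancy replicate 1 was the higher in all 6 probe sets, for example 488 against 325 for Alas2, and at puberty replicate 3 was the highest and replicate 2 the lowest in Hbb-b2, the shared beta-globin set, Hba-a1 and Alas2.

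From puberty to lactation the probe sets of alpha-globin and beta-globin changed equally or unequally depending on the pair. The set of both alpha genes was at 0.27 (standard error 0.177, adjusted p = 0.242, limma) and Hbb-b2 was also at 0.27, while Hba-a1 and the shared beta-globin set had opposite signs. The log2 signal of Hba-a1 minus that of the shared beta-globin probe set was 0.09, −0.27 and 0.23 on the puberty arrays, 0.02 and −0.07 at pregnancy, −1.42 and −1.14 at lactation, and −0.10 and 0.27 at involution. The difference is open to the brightness of the probes, and its change between stages is the measurement. Both lactation arrays lay below all 7 others. Lactation minus puberty was −1.29, and between −1.43 and −1.16 over the alternative settings. This contrast was chosen after the values were seen, and with 3 arrays against 2 its exact two-sided permutation p of 0.2 is the smallest that the 10 arrangements allow.

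The other probe sets did not show the same offset in equal measure. The log2 signal of Hba-a1 minus that of Hbb-b2 averaged 2.86 at puberty, 2.26 at pregnancy, 2.09 at lactation and 2.77 at involution. The shared beta-globin set minus Hbb-b2 averaged 2.84, 2.29, 3.37 and 2.69 in the same order. The 2 beta-globin probe sets thus also moved unequally, with the shared set higher against Hbb-b2 at lactation than at any other stage on all arrays. The probe set of both alpha genes minus the shared beta set was −2.65 and −3.08 at lactation, against −2.41 to −2.27 at puberty. At involution this pair moved farther and the other way, to −0.58 and 0.10, where Hba-a1 minus the shared beta set stayed near its puberty values.

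**Figure D3:**
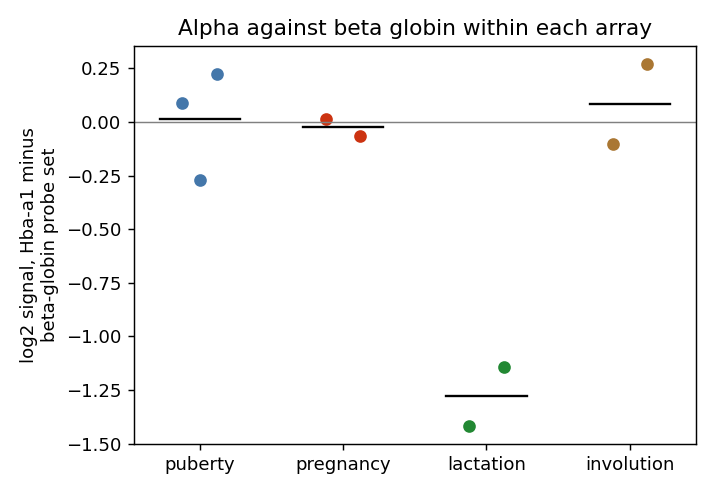
Log2 signal of Hba-a1 minus log2 signal of the shared beta-globin probe set on each array, by stage, with bars at the stage means. The lactation points at −1.42 and −1.14 lie below the 7 others, which range from −0.27 to 0.27.

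Among the other haemoglobin genes, 0 of 3 measured embryonic chains were called at pregnancy with limma, 0 had an unadjusted p under 0.05 and 0 passed by plain least squares. Hba-x, an embryonic alpha-type chain, read 23.3, 26.3 and 32.0 at puberty, 25.5 and 23.8 at pregnancy, 51.4 and 45.4 at lactation, and 31.0 and 20.5 at involution. Its change at pregnancy was −0.38 (adjusted p = 0.25, limma). Hbb-bh1 and Hbb-y, embryonic beta-type chains, were under the floor of 20 on 6 of 9 arrays each, with changes at pregnancy of −0.60 (adjusted p = 0.265) and 0.39 (adjusted p = 0.505). Hba-x and Hbb-bh1 passed the test from puberty to lactation, at 0.84 (adjusted p = 0.0140) and 1.19 (adjusted p = 0.0255). Both fell from lactation to involution, as the adult chains did, by 0.94 (adjusted p = 0.0141) and 1.49 (adjusted p = 0.0157). By plain least squares 1 of the 3 embryonic chains passed from puberty to lactation and 1 from lactation to involution. Neither Hba-x nor Hbb-bh1 was called from puberty to involution. From puberty to lactation, 24.4% of the 3782 probe sets with a mean signal under 60 were called higher and 11.5% lower, the range in which these embryonic genes lie. From lactation to involution, 23% of all probe sets were called lower. Hba-ps3, an alpha-globin pseudogene named after its values were seen, read 252 and 257 at pregnancy against 113 to 175 at puberty, 253 and 183 at lactation, and 75.2 and 119 at involution. It fell by 1.18 from lactation to involution (adjusted p = 0.0105), and its sequence is close to that of the alpha-globin genes.

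Genes of other steps of red cell formation were counted next. At pregnancy against the mean of the other 3 stages, 6.48% of all probe sets were called higher and 5.2% lower, with a median log2 change of −0.07. Of 7 measured genes of haem synthesis other than Alas2, 0 were called in either direction with limma, 0 at an unadjusted p under 0.05 and 0 by plain least squares, with a median of −0.01. Alas1, the form of the first enzyme used outside red cells, had a change of −0.18 (adjusted p = 0.411), and its signals were 509.9 and 404 at pregnancy, 904 to 1008 at puberty and 219.7 and 189.6 at lactation. Alad, for the second enzyme, had −0.51 (adjusted p = 0.234), Urod, uroporphyrinogen decarboxylase, had 0.33 (adjusted p = 0.242) and Ppox, protoporphyrinogen oxidase, had 0.23 (adjusted p = 0.475). Between puberty and involution 0 of the 7 were called by limma, 1 passed an unadjusted p under 0.05 and 0 passed by plain least squares, with a median of −0.18.

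Of 11 measured genes of the red cell membrane and its skeleton, 2 were called higher and 1 lower at pregnancy, while 6 had an unadjusted p under 0.05 and 1 passed by plain least squares. The adducin gene Add1 (0.99, adjusted p = 0.00721) and Cd47, for a surface protein that restrains phagocytes (0.63, adjusted p = 0.0222), were the higher ones. Neither stood above puberty at pregnancy. Add1 read 362 and 419.7 at pregnancy, 384 to 417 at puberty and 32.0 and 46.7 at lactation, so the call rested on the low lactation arrays. Cd47 read 671 and 675 against 573 to 713 at puberty, and its other probe set was not called (0.38, adjusted p = 0.332). Dmtn, for the actin-binding protein dematin, fell by 0.87 (adjusted p = 0.0338). It read 73.0 and 58.9 at pregnancy, 167 to 210 at puberty and 74.2 and 47.4 at lactation, so it overlapped lactation. Ank1, the ankyrin that ties Slc4a1 protein to spectrin, had −0.99 (adjusted p = 0.0582). At involution against puberty 0 were called higher and 1 lower, 6 had an unadjusted p under 0.05, and the median was 0.30.

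Of 13 measured erythroid transcription factors and receptors, 1 was called higher and 1 lower at pregnancy, while 7 had an unadjusted p under 0.05 and 3 passed by plain least squares. Kit, the stem cell factor receptor also found on mast cells and mammary epithelium, rose by 2.18 (adjusted p = 0.00217), with 252 and 378 at pregnancy against 83.6 to 104 at puberty and 22.2 and 23.0 at lactation. Mafk, a small Maf partner of Nfe2, fell by 0.87 (adjusted p = 0.00545). Gata2 had −0.62 (adjusted p = 0.0521) and Ldb1, a cofactor of GATA complexes, had 0.58 (adjusted p = 0.0612). From puberty to lactation 5 of the 13 were called higher and 1 lower, against 26.1% higher and 21.8% lower of all probe sets. Gata1 and Klf1, named after their values were seen, were among the 5, at 1.73 (adjusted p = 0.00255, limma) and 1.05 (adjusted p = 0.0218). Nfe2 had −0.33 (adjusted p = 0.166), and Tal1 was at the floor on all 9 arrays. Hbb-b2 and Hba-a1 were not called in this step, while the shared beta-globin set was (0.79, adjusted p = 0.0390), though not under every setting. Gata1 and Klf1 were dim, at 26.1 to 124 and 27.1 to 80.5. Of probe sets with a mean signal under 60, 24.4% were called higher in this step. From puberty to involution 0 of the 13 were called by limma, 4 had an unadjusted p under 0.05 and 0 passed by plain least squares.

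Of 11 measured red cell enzymes and late erythroid genes, 4 were called higher and 0 lower at pregnancy, with a median of 0.36, 6 had an unadjusted p under 0.05 and 4 passed by plain least squares. Car2, carbonic anhydrase, rose by 2.03 (adjusted p = 0.00013), from 39.4 to 45.8 at puberty to 625 and 708 at pregnancy. It stayed at 504 and 452 at lactation and 207 and 218 at involution, where globin was lowest, and from puberty to involution it rose by 2.30 (adjusted p = 8.69e-05). Bpgm, which makes the effector that lowers the oxygen affinity of haemoglobin, rose by 1.90 at pregnancy (adjusted p = 0.000791), with 191 and 167 against 75.6 to 90.7 at puberty. At lactation Bpgm was under the floor, at 9.86 and 5.51, and at involution it read 63.6 and 64.9. Prdx2, an abundant red cell peroxiredoxin, rose by 0.63 (adjusted p = 0.00966) and Mkrn1 by 0.69 (adjusted p = 0.0215), but other probe sets of both genes were not called, at 0.65 for Prdx2 (adjusted p = 0.117) and at 0.23 and 0.30 for Mkrn1 (adjusted p = 0.694 and 0.328). Car2 was the 1 gene of the 11 called higher from puberty to involution, and 0 were called lower.

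Of 6 measured genes that clear haemoglobin and haem, 0 were called at pregnancy by limma or plain least squares, 3 had an unadjusted p under 0.05, and the median was −0.24. Hpx, haemopexin, had −0.43 (adjusted p = 0.073), Hmox1, the haem oxygenase, −0.41 (adjusted p = 0.172), Hp, haptoglobin, −0.69 (adjusted p = 0.178) and Lrp1, the receptor for haemopexin, 0.11 (adjusted p = 0.639). Against puberty, 0 of the 6 were called at involution and 1 had an unadjusted p under 0.05. Hmox1 read 584 and 811 at involution against 357 to 529.8 at puberty, with a change of 0.64 (adjusted p = 0.097).

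**Figure D4:**
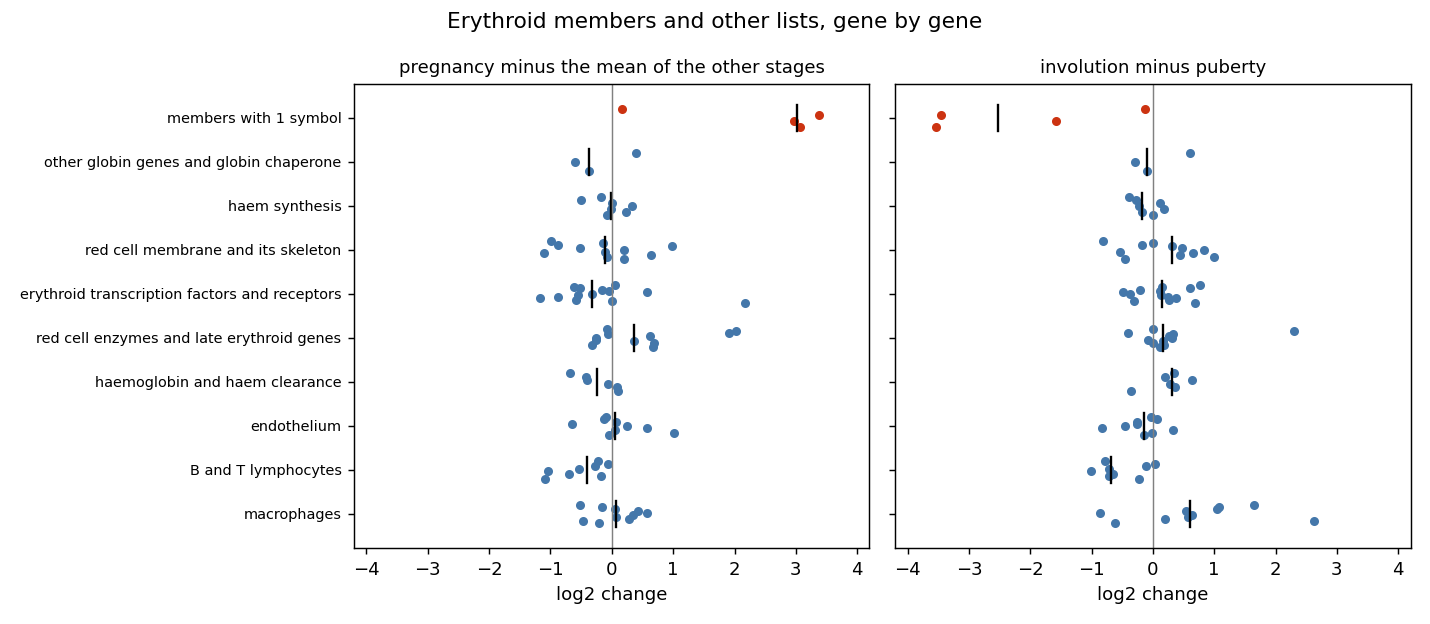
Log2 change of each tested gene (points) with the list median (bar), for the listed erythroid genes with a probe set of their own and for 9 other lists, at pregnancy against the mean of the other stages (left) and at involution against puberty (right). The erythroid medians lie beyond those of the other lists in both panels, at pregnancy by the choice of the genes, and Slc4a1 lies near 0 in both.

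Markers of the other cells in blood and gland were set beside the globin values. Summed endothelial signal over 9 genes was 1247 to 1305 at pregnancy, 1379 to 1515 at puberty, 818 to 833 at lactation and 1485 to 1607 at involution. Eng was the brightest of the 9 at every stage, and single genes ran in different orders. Pecam1 averaged 135 at lactation and 59.0 at puberty, the 1 gene of the 9 called higher in that step. Another 6 were called lower, against 26.1% of all probe sets called higher and 21.8% lower. Of the 9, 1 was called higher at pregnancy, Emcn, for the endothelial surface protein endomucin (1.01, adjusted p = 0.0143), whose other probe set was not called (0.63, adjusted p = 0.172). Emcn averaged 137 at pregnancy and 105 at puberty. The part of vessel content in the globin values was not tested. Involution against puberty gave 0 calls among the 9, of which 2 had an unadjusted p under 0.05. Of 2 measured platelet genes, 0 were called in either comparison by limma or plain least squares, and at an unadjusted p under 0.05 both passed at pregnancy and 1 at involution against puberty. They were Vwf (0.56, adjusted p = 0.0687), which endothelium also makes, and Gp9 (−0.38, adjusted p = 0.145), and the platelet markers Pf4 and Gp1bb were at the floor on all 9 arrays.

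Of 8 lymphocyte genes, 2 were called lower at pregnancy, Cd8a (−1.09, adjusted p = 0.0298) and Cd3g (−1.05, adjusted p = 0.039), and 0 were called from puberty to involution, where 2 had an unadjusted p under 0.05. Their summed signal was 844 to 1168 at pregnancy and 2434 to 2645 at puberty. It was lowest at lactation, at 277 to 582, and was 1747 to 2131 at involution. All 8 were called lower from puberty to lactation, against 21.8% of all probe sets. From lactation to involution all 8 were called higher, against 22.1% of all probe sets. Of 10 macrophage genes, 0 were called at pregnancy by limma, 2 had an unadjusted p under 0.05 and 1 passed by plain least squares, with C1qb at 0.35 (adjusted p = 0.0538), and 5 were called higher from puberty to involution, with sums of 8567 to 11402 against 5318 to 6144. Of 10 neutrophil genes, 0 were called at pregnancy by limma or plain least squares and 4 had an unadjusted p under 0.05, and 2 were called higher and 1 lower from puberty to involution. The neutrophil sum was 7009 to 11915 at lactation, most of it from Lcn2, which mammary epithelium also makes, and Cxcr2 was at the floor on all arrays. The part of these cells in the globin values was not tested.

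Markers of epithelium and adipocytes were read next. Of 9 epithelial genes, 3 were called higher and 1 lower at pregnancy, with Csn3, the kappa-casein gene, at 6667 and 5772 against 283 to 362 at puberty. The lower one was Lalba (−2.38, adjusted p = 0.00721, limma), with means of 95.9 at pregnancy, 30.0 at puberty and 20619 at lactation. Summed signal of the 9 rose from 2588 to 3727 at puberty to 16462 to 16667 at pregnancy and 77966 to 98880 at lactation. The puberty arrays differed in milk genes, with Wap at 4.09, 696 and 436 and Csn2 at 4.86, 238 and 171. Krt5 and Krt14 were at the floor on 7 and 8 arrays. Of 6 adipocyte genes, 1 was called lower at pregnancy, Pck1 (−0.72, adjusted p = 0.0177), and their sum was 1862 to 2177 at lactation against 8050 to 10456 at puberty. At involution against puberty 4 epithelial genes were called higher, and 1 adipocyte gene was called higher and 1 lower. The part of these changes in the globin values was not tested.

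The genes whose profile was most like the erythroid mean were named by their Pearson r over the 9 arrays, among 3958 probe sets with at least a 2-fold range of stage means. They were Eif2b1 (0.939), Actg2 (0.929), Ptbp3 (0.908), Pip4k2c (0.907), Pbrm1 (0.907), Igfbp2 (0.881), Abcf2 (0.872) and Sprr1b (0.866). None of them is a red cell gene by name. Igfbp2, for a binding protein of insulin-like growth factors, read 407 and 206 at pregnancy, 118, 59.8 and 47.9 at puberty, 90.8 and 75.4 at lactation, and 29.7 and 37.0 at involution. Actg2, a smooth muscle actin that myoepithelial cells also make, read 502 and 426 at pregnancy and 121 and 124 at involution, a smaller span than that of any measured adult globin probe set. The likeness has no test, and the mean profile includes the pregnancy arrays by which the genes were chosen.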

How the data were processed

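The authors deposited linear MAS5 signal intensities per probe set and array, of unstated version, scaled per array. The normalization per chip and gene that the methods describe is not in these values. The 66 control probe sets were left out, the remaining 12422 were scaled to equal medians (factors 0.948 to 1.06), a floor of 20 was set before log2. The test took the 9783 probe sets whose mean passed 20 at any stage, and 2639 were left out. Printed signals are scaled without the floor. By the platform's annotation 10833 probe sets have a single symbol, 396 more than that and 1193 have no entry, and 10817 names were brought up to date with RefSeq's GRCm38.p6 table.

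limma 3.58.1 in R 4.3.3 (lmFit, eBayes with a trend) was fitted over all 9 arrays, which share 1 spread, with Benjamini-Hochberg adjustment and a threshold of 0.05. The steps were tested on simulated data. Where a gene has several probe sets, the brightest was used. The members and the 13 other lists were chosen with earlier results of these data known. Named were every member, up to 4 genes a list with the smallest p at pregnancy, and the 8 most alike profiles. Alternatives were other scalings, floors, filters and fits, and each array left out. The number of arrays limits the precision.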

Additional observations from a re-analysis of the deposited data

How the results depend on the processing

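Every involution call of Hbb-b2, Hba-a1 and the shared alpha-globin and beta-globin probe sets held in all alternatives run. Among the embryonic chains, 2 were called from lactation to involution by limma and 1 by plain least squares. For the counts of calls, involution against puberty gave 732 probe sets, and 480 with a floor of 50, 454 with no filter, 317 with plain least squares and 245 (without involution replicate 2) to 798 (without involution replicate 1) when arrays were left out. Pregnancy gave 1143, and 747 with plain least squares and 192 (without pregnancy replicate 1) to 1963 (without lactation replicate 2). Replicate numbers were not used to pair the arrays. In deviations from the stage means, the 12 same-numbered pairs had r from −0.153 to 0.0490. In a stage of 2 arrays these deviations mirror each other, so the pairs are not separate checks, and a shared batch was not tested. With a replicate block the counts were 354 and 570 in these 2 comparisons, and Alas2 from puberty to involution was −1.38 (adjusted p = 0.0645). Alas2 from puberty to involution was also −0.48 with a floor of 50 and −1.58 (adjusted p = 0.0679) with plain least squares, and −1.81 to −1.36 with an array left out. With a floor of 50 Alas2 was −0.70 from lactation to involution and 2.60 at pregnancy, where an added constant of 16 gave 2.63. The rise of the shared beta-globin probe set from puberty to lactation was 0.68 on the deposited scale, 0.20 with quantile normalization, 0.79 with a floor of 50 (adjusted p = 0.101), no filter (adjusted p = 0.106) or plain least squares (adjusted p = 0.112), and 0.70 to 0.88 with an array left out. Quantile normalization gave −1.02 for Hba-a1 in that comparison (adjusted p = 0.0130), and 3.17 and 3.57 for the shared beta-globin set and Hba-a1 at pregnancy. Slc4a1, never called, turned sign, with −0.042 on the deposited scale (lactation against puberty) and 0.12 with a floor of 50 (involution against puberty). With an array left out it ran from −0.27 to 0.41, −0.72 to 0.31 and −0.65 to 0.38 in lactation against puberty, involution against lactation and involution against puberty. A filter of 100 left out Slc4a1. With other scalings, at pregnancy 2 genes of the transcription factor and receptor list were called higher on the deposited scale, 4 epithelial genes with quantile normalization and 1 macrophage gene in each, and with quantile normalization 3 adipocyte genes were lower from puberty to involution. The cause of these shifts was not tested.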
